A study of Homo sapiens with 12 samples.

Results

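DTX2, DTX3 and DTX4, NUMBL and LFNG encode proteins that tune Notch signaling without being its receptors or ligands. They were taken by symbol, as 5 of the 199 genes of the nCounter Dx Stem Cell Panel, and were described in all 12 samples. The samples were LX-2 cells, an immortalised line of activated human hepatic stellate cells (HSCs), the collagen-producing cells of the fibrotic liver. They were transiently transfected at 10 pmol/ml either with a miR-25 mimic or with a control mimic of nematode origin, and all were grown in the same medium with 2% serum. RNA was taken 24 h or 48 h later. Each of the 4 groups held 3 samples. Each control sample had a miR-25 sample of the same time point, replicate and recorded efficiency, which gave 6 transfection pairs. The authors measured transfection efficiency in a parallel well of each plate, which received a fluorescein-labelled control miRNA. As a fraction of cells it was 0.59, 0.75 and 0.81 for replicates 1, 2 and 3 at 24 h, and 0.42, 0.61 and 0.65 at 48 h. Each miR-25 sample was therefore taken as a mixture of transfected and untransfected cells of 1 line. The miR-25 level relative to the control of the pair, given in the labels, was 62.34, 192.53 and 350.13 for the 24 h replicates. For those of 48 h it was 347.45, 482.36 and 681.22.

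Notch is a receptor that, once bound by a ligand on a neighbouring cell, is cut so that its intracellular part enters the nucleus and acts with RBPJ on target genes such as HES1. Fringe enzymes, of which LFNG is one, extend the sugars on the extracellular part of Notch in the Golgi and so change which ligands it answers to. NUMBL is the close relative of NUMB, an adaptor of endocytosis known as an antagonist of Notch. The Deltex proteins are ubiquitin ligases, several of which bind the intracellular part of Notch and steer its trafficking. In the liver, Notch signaling is known for its part in biliary development and in the activation of HSCs.

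MicroRNAs pair with messages through bases 2 to 8, their seed. Mature human miR-25, which lies on the minus strand of chr7:100093571-100093592 (GRCh38.p14), is shown to make clear what the mimic stands for; the sequence of the mimic itself was not given in the sources used here. The other human miRNAs in the RefSeq table that have the same seed are shown with it, and 6 miRNAs shared it in all. Seeds are in capitals.
hsa-miR-25-3p: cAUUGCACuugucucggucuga
hsa-miR-92a-3p: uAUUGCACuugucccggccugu
hsa-miR-92b-3p: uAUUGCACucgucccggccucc
hsa-miR-32-5p: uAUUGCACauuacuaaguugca
hsa-miR-363-3p: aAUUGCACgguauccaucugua
hsa-miR-367-3p: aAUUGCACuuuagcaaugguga

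In the nCounter assay a pair of probes binds 100 bases of a message, and the barcodes on the bound probes are counted without amplification. Each value therefore rests on the stretch that the panel design gives for the gene. The opening 30 bases of each stretch are shown because they define what was counted.
LFNG: aggatttttggatctttctacagctacggg
NUMBL: gaaaaggtctccttttgtgctcctgaccgc
DTX3: ctccccgtgtacatatactcccggtttccc
DTX2: cctctctctcctcctcccctctgggaattg
DTX4: atctactaccttgacacagagtgttttccc
The reverse complement of the seed, GTGCAAT, was read on the message strand and was in none of these 5 stretches, nor in any of the 193 stretches listed for the panel. That says only that these letters are not in the probed windows. DTX4 was designed on a predicted model record (XM_166213.6), and DTX2 (NM_020892.2) has a transcribed pseudogene, DTX2P1-UPK3BP1-PMS2P11, whose part in its count was not tested.

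The total over the panel genes was 321243 to 409581 counts at 24 h and 107377 to 200821 at 48 h, lowest in the 48 h control of replicate 1. Time point and depth therefore cannot be told apart. Samples of the 2 time points had different transfection efficiencies and were taken as separate transfections, although the labels do not say whether they share a culture. Values below are counts per 100000 panel counts, a share of the panel and not an amount per cell, and fewer transcribing cells and less RNA per cell cannot be told apart. All 4 mesenchymal genes checked (COL1A1, CDH2, CD44 and PLAU) were above background in every sample. Background was set per sample from its negative control probes, at 2 SD over their mean, which gave 10.2 to 16.5 counts for the 24 h samples and 5.52 to 8.40 for those of 48 h. None of the 4 T cell genes and neither of the 2 epithelial genes was above it in every sample; of the 4 stem cell genes, POU5F1 was. CD3D, CD8B and SOX2 were above it in no sample, while CD4 was above it in 11 samples, with at most 43 counts, and KRT15 in 5. The stem cell genes NANOG and SOX1 were above it in 8 samples each, and CD8A and CDH1 in 1 each. Other markers of HSCs were not analysed here.

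All 5 genes were above background in 12 of 12 samples, but at very different levels. LFNG, the Fringe enzyme, had a mean over the 12 samples of 131.0 per 100000, NUMBL of 115, DTX3 of 86.1, DTX2 of 27.0 and DTX4 of 8.79, which placed them at ranks 82, 86, 94, 115 and 135 of the panel. Message length does not enter these values, but probe pairs were not calibrated against each other, so that the order is one of counts. LFNG and NUMBL overlapped in the controls of both time points and in the miR-25 samples at 48 h. LFNG was the higher in each of the 6 samples at 24 h, and at 48 h NUMBL was the higher in 2 of 3 controls and in 3 of 3 miR-25 samples. NUMBL and DTX3 overlapped only in the controls at 48 h, and DTX3 over DTX2 and DTX2 over DTX4 were apart in all 4 groups.

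**Figure D1:**
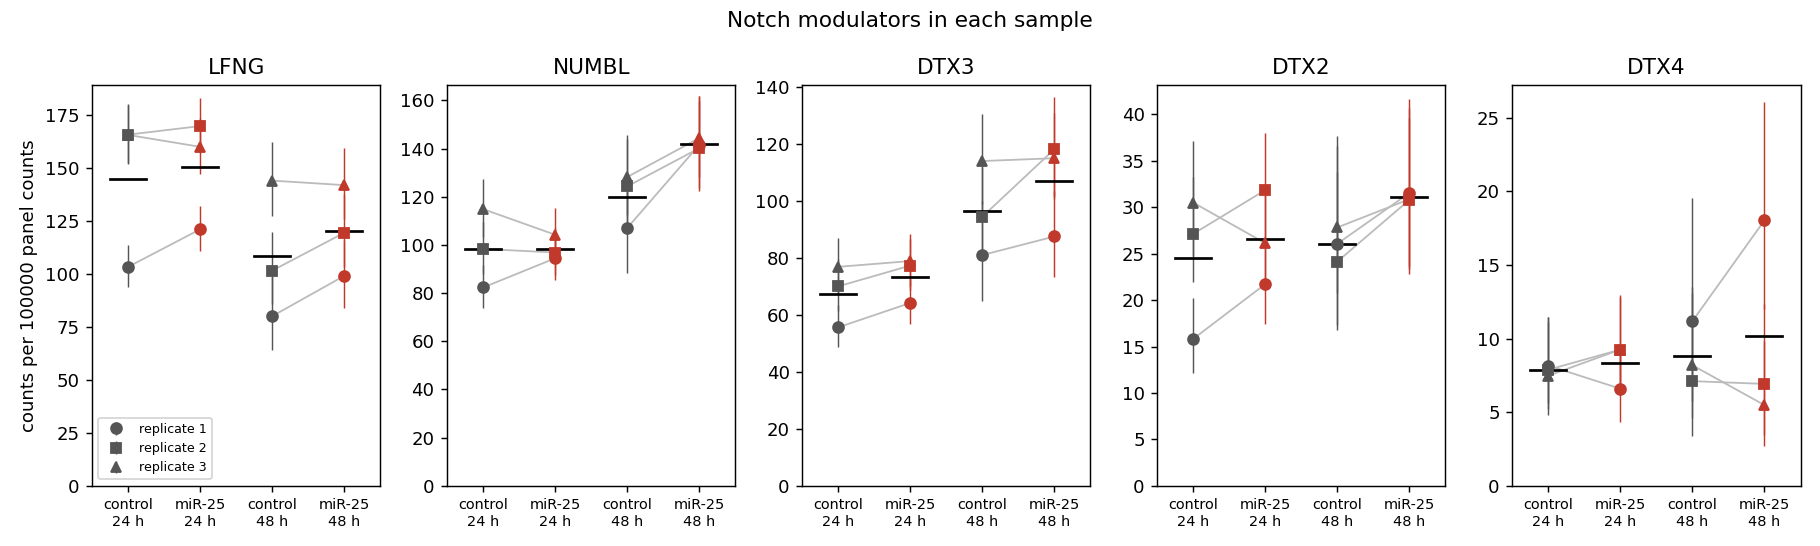
Counts per 100000 panel counts (vertical axis, its own scale per gene, starting at 0) of LFNG, NUMBL, DTX3, DTX2 and DTX4 in each sample of the 4 groups. Symbols are samples by replicate with 95% intervals of counting error, horizontal bars are group means, and grey lines join samples of a transfection pair. The 3 miR-25 samples of NUMBL and of DTX2 at 48 h lie above their 3 controls. LFNG is spread widely within each group, and DTX4 has the lowest values of these genes in each group.

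For DTX4 the margin over background was thin. Its counts were 33, 27 and 24 in the controls and 27, 36 and 34 in the miR-25 samples at 24 h, and 12, 10 and 15 in the controls and 28, 11 and 11 in the miR-25 samples at 48 h. The mean of the negative control probes came to between 13.2% and 31.8% of these counts. For the 4 other genes that share did not exceed 11.6%, its value for DTX2 in the 48 h control with 28 counts.

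The panel also holds relatives of these genes. DTX3L, a Deltex protein known as a partner of PARP9, had a mean of 519 per 100000 over the 12 samples. NUMB stood at 324 and RFNG, another Fringe enzyme, at 219. DTX1 stood at 5.34 and was above background in 10 of 12 samples, and the Fringe enzyme MFNG stood at 1.69 and was above it in none. So NUMB was counted more often than NUMBL, RFNG more often than LFNG and DTX3L more often than any other Deltex gene in each of the 12 samples.

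Control samples showed how far these genes vary without the miR-25 mimic. DTX2, a Deltex ubiquitin ligase, had 15.8, 27.1 and 30.5 per 100000 in the 3 controls at 24 h. Replicate 1 was the low one, and the log2 range of 0.95 between these controls was the widest among the 136 genes that averaged 20 counts or more. Its coefficient of variation (CV) was 31.4%, against 10.9% from counting error alone. At 48 h the controls of DTX2 had 26.1, 24.2 and 27.8 per 100000. They were close together, with a CV of 7.06%, less than the 16.7% that counting error alone would give from counts of 28 to 51.

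LFNG was widely spread at both time points. Its controls had 103, 166 and 166 per 100000 at 24 h, with replicate 1 apart from the other pair. At 48 h they had 80.1, 102 and 144, with no value near another. The log2 ranges of 0.68 and 0.85 ranked 4 and 28 among the 136 genes, and the CVs of 24.8% and 29.97% stood against 4.46% and 7.98% from counting error. NUMBL had 82.3, 98.3 and 115 in the 24 h controls, and its 48 h controls had 107, 124 and 128. The lowest was replicate 1 each time, and the log2 range fell to rank 99 at 48 h from rank 18 at 24 h. DTX3 had 55.6, 70.0 and 76.9, and 48 h controls of 81.0, 94.5 and 114, again lowest in replicate 1, with CVs of 16.1% and 17.2% where counting error gives 6.52% and 8.56%. DTX4 had 8.16, 7.88 and 7.47 in the earlier controls, with 11.2, 7.10 and 8.18 in the later ones. Its CVs of 4.42% and 23.9% did not exceed the 19.0% and 29.2% of counting error.

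Over the 136 genes the median CV of the controls was 7.27% for 24 h, and 15.5% for 48 h. At 24 h, 4 of the 5 members were above that median, and at 48 h LFNG, DTX4 and DTX3 were. The 24 h control of replicate 1 was the lowest control of LFNG, NUMBL, DTX3 and DTX2, as it was of 85 (62.5%) of the genes tested. This was the replicate with the lowest transfection efficiency at that time point, and the part of efficiency in its low values was not tested. The miR-25 level of that replicate, also the lowest at 24 h, belongs to its miR-25 sample and not to the control. The 48 h control of replicate 1 was the lowest of LFNG, NUMBL and DTX3, as of 56.6% of the genes tested.

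**Figure D2:**
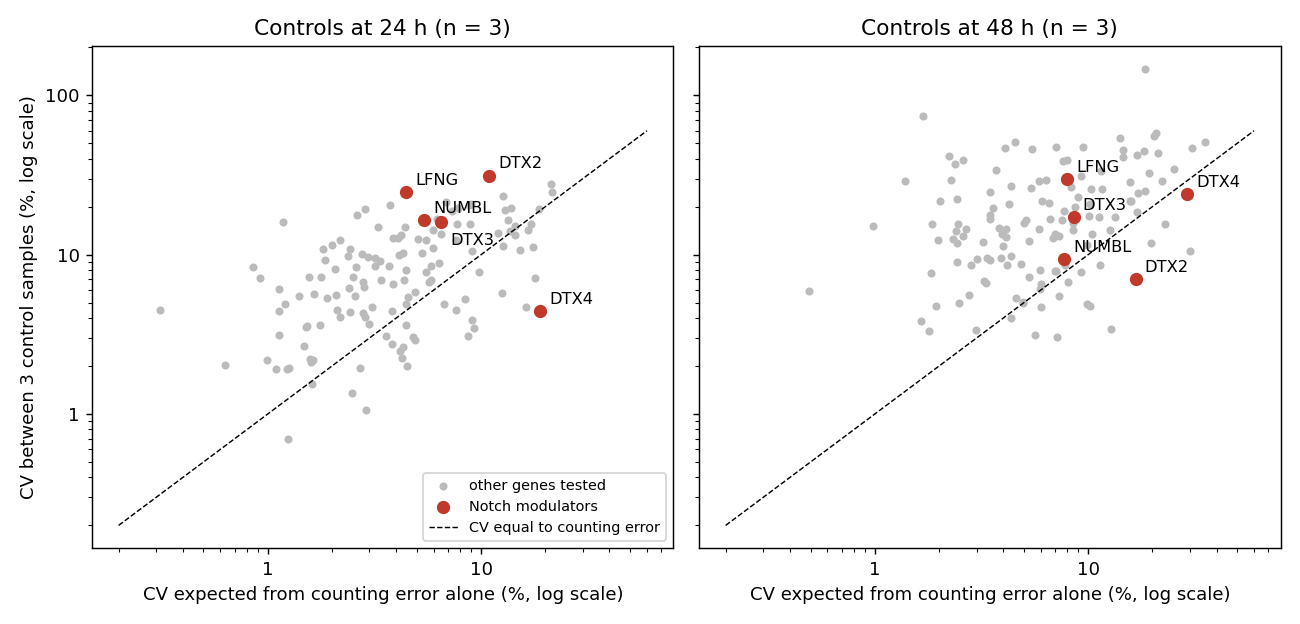
CV between the 3 control samples (vertical axis, %, log scale) against the CV expected from counting error alone (horizontal axis, %, log scale) for the 136 genes tested, at 24 h and at 48 h. Points above the dashed line varied more than counting error; LFNG (24.8% and 29.97%) and DTX3 lie above it at both time points, DTX4 lies below it at both, and DTX2 moves from 31.4% at 24 h to 7.06% at 48 h.

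Next, controls at 48 h were compared with controls at 24 h. This showed how these genes differ between the time points with the control mimic and without the miR-25 mimic. In edgeR's quasi-likelihood test none of the 5 passed an adjusted p of 0.05, and 1 of them (DTX3) had an unadjusted p under 0.05. Of the 136 genes tested, 5.15% (7 genes, 4 higher and 3 lower at 48 h) passed the adjusted threshold and 30.9% the unadjusted one. With TMM scaling 4 were higher and 6 lower, and with DESeq2 8 were higher and 14 lower. DTX3 was 1.44-fold higher at 48 h (95% interval 1.07 to 1.94, log2 fold change 0.53, SE 0.18, adjusted p = 0.128 from edgeR). Its 3 controls at 48 h all lay above the 3 at 24 h, which was so for 21.3% of the genes tested. With the miR-25 samples included, all 6 samples of DTX3 at 48 h lay above the 6 at 24 h, which was so for 11.8%.

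The DTX3 result depended on 1 library. Without the 48 h control of replicate 1, the sample with the lowest total, the log2 fold change of DTX3 was 0.64 and passed the threshold (adjusted p = 0.0183 from edgeR), and the number of genes called rose from 7 to 54. DTX3L had a similar difference (log2 fold change 0.59, adjusted p = 0.128 from edgeR), so that DTX3 counts were 16.1% ± 0.99 (SD, n = 3) of DTX3L counts in the controls at 24 h and 16.1% ± 5.9 at 48 h. At 48 h this share ran from 9.95% in replicate 1 to 21.8% in replicate 3. The closeness of the means thus hid a wide spread.

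NUMBL was 1.22-fold higher at 48 h in the controls (interval 0.946 to 1.58, adjusted p = 0.242 from edgeR), with overlapping groups. Between the miR-25 samples of both time points its log2 difference was 0.53, which passed the threshold (adjusted p = 0.0260 from edgeR), as it did for 10 of the 136 genes. Whether it differed from the controls in this respect is the test of the difference of the miR-25 effect, given below, which NUMBL did not pass. DTX2 and DTX4 had folds of 1.07 (interval 0.682 to 1.68) and 1.10 (0.715 to 1.70), so that the intervals reach to rises of 1.68-fold and 1.70-fold.

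LFNG was the only one of the 5 with a fold below 1, of 0.758 at 48 h (interval 0.493 to 1.17, adjusted p = 0.322 from edgeR). LFNG was also set against RFNG in the same sample, which needs no library total. LFNG counts were 63.3%, 79.9% and 81.3% of RFNG counts in the controls at 24 h. At 48 h they were 47.8%, 37.7% and 51.3%. The groups did not overlap, with means of 74.9% ± 10.0 and 45.6% ± 7.0 (SD, n = 3 each), a log2 difference of -0.72. The exact permutation test gave p = 0.1 (two-sided), the smallest possible with 3 against 3, and 0.4 after adjustment over the 4 such pairs of genes. The miR-25 samples were at 64.5%, 78.8% and 75.3% at the earlier time point, against 59.2%, 43.6% and 51.9% later, also without overlap. RFNG itself had a fold of 1.26 (interval 0.896 to 1.76) between the controls. Among single genes tested, the controls at 48 h lay wholly above those at 24 h for 21.3% and wholly below for 14%. For quotients of other gene pairs that share was not determined. This comparison with a relative, and those with NUMB and DTX3L, were chosen after seeing the data.

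**Figure D3:**
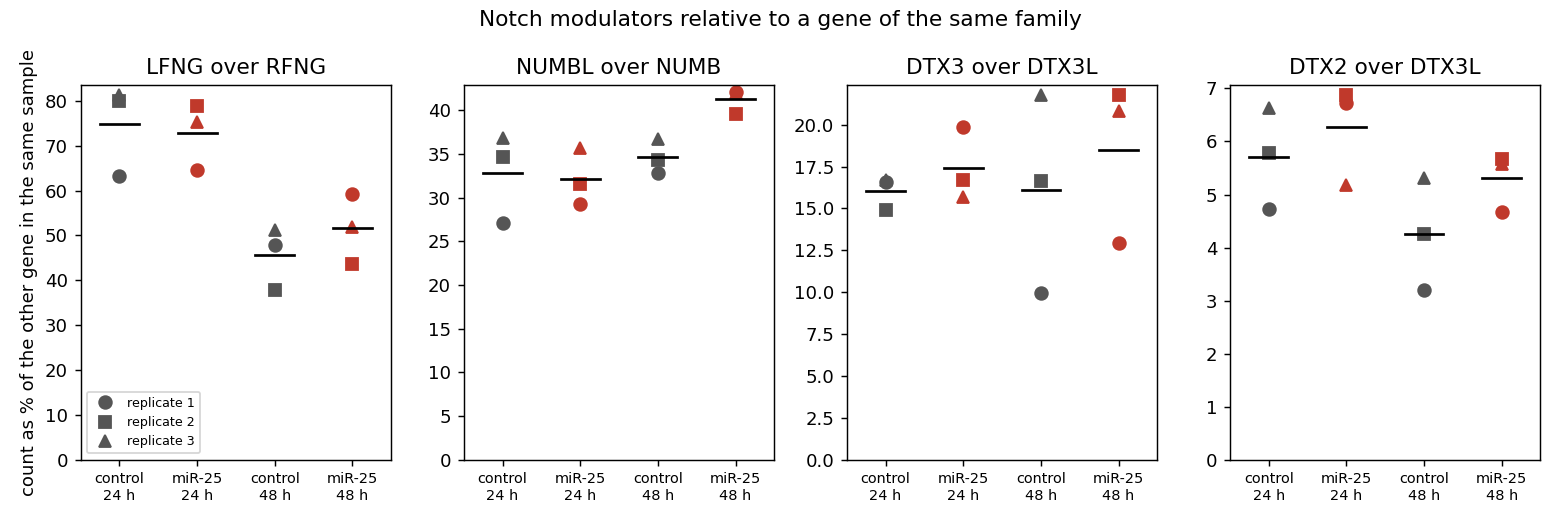
Count of a gene as a percentage of the count of a relative in the same sample (vertical axis, %, starting at 0) for LFNG over RFNG, NUMBL over NUMB, DTX3 over DTX3L and DTX2 over DTX3L, in the 4 groups. Symbols are samples by replicate and bars are means; LFNG over RFNG is lower in all 6 samples at 48 h than in the 6 at 24 h, and NUMBL over NUMB at 48 h is 39.5% to 42.1% in the miR-25 samples and 32.9% to 36.7% in the controls.

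miR-25 against control was then compared within the transfection pairs. In edgeR's quasi-likelihood test, 0 of the 5 members reached an adjusted p of 0.05 in any of the 4 tests. These were miR-25 against control at 24 h, the same at 48 h, the effect over both time points together, and the difference between the time points, and 0%, 0.735%, 0% and 0% of the 136 genes reached it. DESeq2 and limma called none of the 5 either. At an unadjusted p under 0.05, NUMBL passed at 48 h and DTX3 over both time points, against 12.5% and 15.4% of all genes; none of the 5 did at 24 h or for the difference, against 6.62% and 5.88%. All 5 fitted folds lay above 1 at either time point and over both together. Of all genes 70.6%, 44.1% and 57.4% did so in these 3 comparisons. The median log2 fold change of the 5 members was 0.08 at 24 h, where that of all genes was 0.03. At 48 h it was 0.14, where that of all genes was -0.01. In every pair of their time point, DTX3 was higher at 24 h, which was so for 25.7% of the genes, and DTX2, DTX3 and NUMBL were higher at 48 h, which was so for 16.9%. With TMM scaling at 24 h the share of all genes above 1 was even on either side (68 of 136) and NUMBL moved below 1.

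NUMBL, the Numb relative, had miR-25 samples of 94.5, 96.8 and 104 per 100000 at 24 h against controls of 82.3, 98.3 and 115. At 48 h they were 142, 140 and 144 against 107, 124 and 128. The miR-25 samples overlapped the controls at 24 h and lay above all of them at 48 h, and the same held for 3.68% of the genes tested (5 genes, with DTX2 among them). The ratios were 1.15, 0.985 and 0.907 in the 24 h pairs and 1.32, 1.13 and 1.13 in the 48 h pairs, with means of 1.01 ± 0.12 and 1.19 ± 0.11 (SD, n = 3 pairs). The fitted fold at 48 h was 1.18 (interval 1.03 to 1.35, log2 fold change 0.23, SE 0.092), with an unadjusted p = 0.0231 and an adjusted p = 0.310 from edgeR. At 24 h the fold was 1.01 (interval 0.903 to 1.12). The difference between the effects, 0.22 on the log2 scale (SE 0.12), had an adjusted p = 0.631 from edgeR.

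NUMB had a fold of 0.995 at 48 h (interval 0.909 to 1.09). NUMBL counts were 32.9%, 34.3% and 36.7% of NUMB counts in the controls at 48 h. In the miR-25 samples they were 42.1%, 39.5% and 42.0%. These groups were apart, as those of NUMBL alone already were. How many quotients of other gene pairs were apart was not determined. The mean quotient of the shares, miR-25 over control, was 1.19 ± 0.077 (SD, n = 3 pairs). At 24 h it was 0.987 ± 0.085. Over the 6 pairs the exact sign-flip permutation test gave p = 0.188 (two-sided), and 0.25 after adjustment over the 4 pairs of genes. With 3 pairs such a test cannot give less than 0.25, so that 48 h alone could not pass.

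DTX3 was the only one of the 5 with a ratio above 1 in every pair. Its miR-25 samples had 64.2, 77.3 and 78.9 per 100000 at 24 h. At 48 h they had 87.6, 118 and 115. These overlapped the controls at both time points, since differences between transfection pairs were larger than those within them. The ratios were 1.15, 1.10 and 1.03 in the 24 h pairs and 1.08, 1.251 and 1.01 in the 48 h pairs. All 6 pairs were higher for 7 of the 136 genes (5.15%), DTX3 among them, and all 6 were lower for 1.47%, with none of the 5 members. The fold over both time points was 1.10 (interval 1.01 to 1.19, log2 fold change 0.13, SE 0.057), with an unadjusted p = 0.0327 and an adjusted p = 0.297 from edgeR. The exact sign-flip permutation test over the 6 pairs gave p = 0.0313, the smallest possible, and 0.411 after adjustment over all genes tested. Relative to DTX3L, which had a fold of 0.981 over both time points (interval 0.920 to 1.05), DTX3 was higher in 4 of 6 pairs (exact p = 0.125).

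DTX2 had miR-25 samples of 21.7, 31.9 and 26.1 per 100000 at 24 h, within the span of controls that ran from 15.8 to 30.5 or just above it. At 48 h they had 31.5, 30.8 and 30.9, above the controls of 26.1, 24.2 and 27.8 in each case. The counts behind them were 49, 49 and 62 against 28, 34 and 51, and the CV of the 3 miR-25 samples, 1.31%, was far below the 13.8% that counting error gives. The groups at 48 h were apart, but the fitted fold of 1.19 had an interval of 0.908 to 1.55 (adjusted p = 0.540 from edgeR). Over both time points the ratio was above 1 in 5 of 6 pairs, as in at least 5 of 6 for 22.1% of the genes tested, with a fold of 1.13 (interval 0.970 to 1.31, adjusted p = 0.440 from edgeR).

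LFNG had miR-25 samples of 121, 170 and 160 per 100000 at 24 h. Those of 48 h had 99.1, 119 and 142. They overlapped the controls at both time points, with replicate 1 the lowest in each group. The ratios were 1.17, 1.024 and 0.966 in the 24 h pairs and 1.24, 1.18 and 0.985 in the 48 h pairs. They were above 1 in 4 of 6 pairs, with a fold of 1.06 over both time points (interval 0.981 to 1.15, adjusted p = 0.443 from edgeR). The intervals of the fit leave out changes of LFNG beyond 1.27-fold at 48 h or 1.15-fold at 24 h in either direction. They hold for whole samples, untransfected cells included, and with the transfection pair as block. For DTX4 the 24 h pairs gave ratios of 0.808, 1.17 and 1.24, and the 48 h pairs 1.61, 0.974 and 0.669. It was above 1 in 3 of 6 pairs, and at 48 h its interval, 0.684 to 1.69, spanned changes in both directions that the fit could not detect. The CV of its 48 h miR-25 samples was 67.7%, against 24.6% from counting error alone.

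The replicates did not contribute alike. The 24 h pair of replicate 1 had the highest ratio of its time point in LFNG, NUMBL, DTX3 and DTX2, as in 36.8% of the genes tested, and these were the genes whose control of that replicate was the lowest. Without that pair the log2 fold change at 24 h was -0.0065 for LFNG, -0.082 for NUMBL and 0.014 for DTX2. For DTX2 the value with all pairs was 0.14, and without the pair of replicate 3 it was 0.33. At 48 h the pair of replicate 1 had the highest ratio in LFNG, NUMBL and DTX4, as in 43.4% of the genes, and without it the log2 fold change of DTX4 was -0.33.

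**Figure D4:**
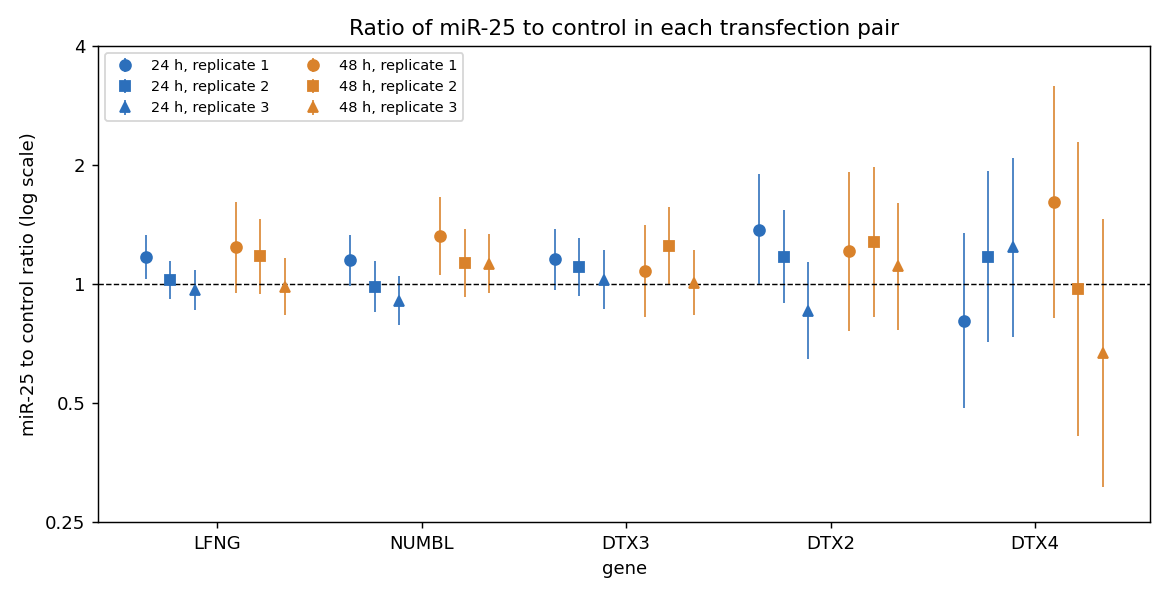
Ratio of miR-25 to control (vertical axis, log scale) in each of the 6 transfection pairs for LFNG, NUMBL, DTX3, DTX2 and DTX4, with 24 h in blue and 48 h in orange. Bars are 95% intervals of counting error and the dashed line is a ratio of 1; DTX3 lies above 1 in all 6 pairs, from 1.01 to 1.251, and DTX4 runs from 0.669 to 1.61 with wide bars.

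**Figure D5:**
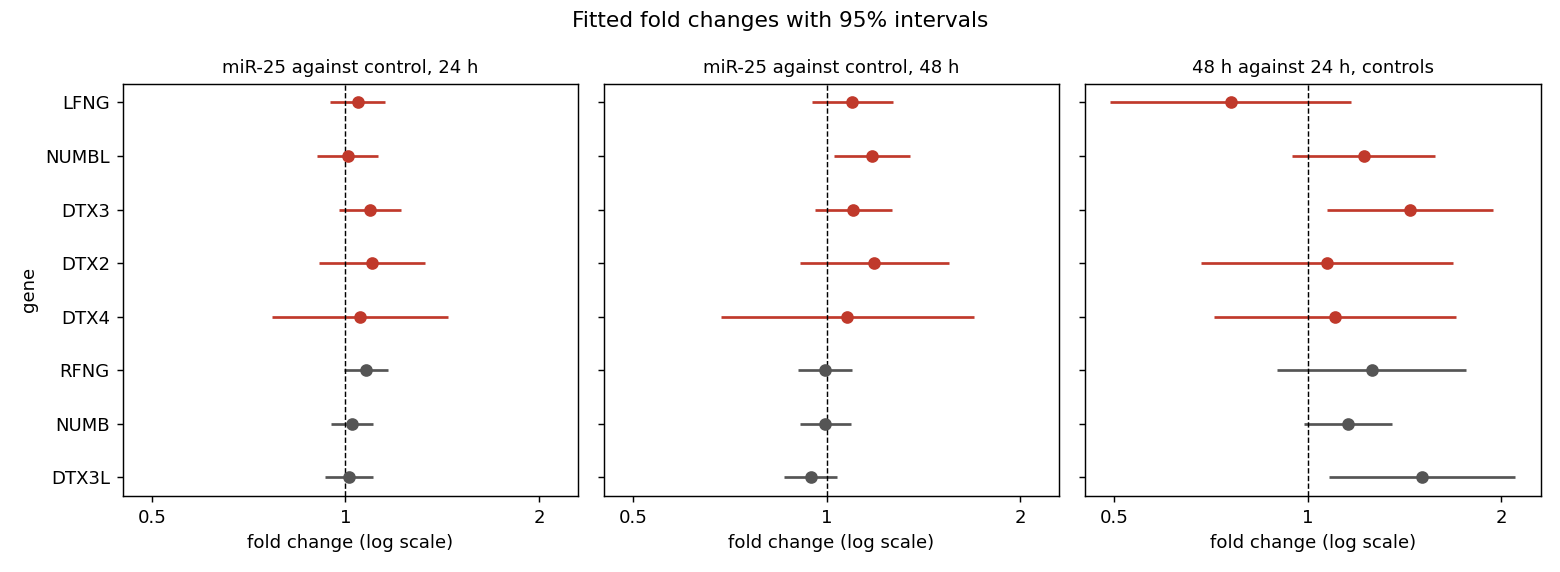
Fitted fold changes (horizontal axis, log scale) with 95% intervals from edgeR for the 5 genes (red) and their relatives RFNG, NUMB and DTX3L (grey), for miR-25 against control at 24 h and at 48 h (3 pairs each) and for 48 h against 24 h in controls (3 samples each). The intervals of NUMBL at 48 h (1.03 to 1.35) and of DTX3 between time points (1.07 to 1.94) lie above 1 without adjustment, and DTX4 has the widest interval in both miR-25 panels.

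The study corrects ratios for untransfected cells with the transfection efficiency, which changed the size of these values. Ratios of a gene whose mean lies below a lower limit just under 1 are multiplied by the efficiency, which applied to none of the mean ratios here. By the step that did apply, a gene whose mean ratio exceeds an upper limit just over 1 has each ratio divided by the efficiency of its pair. After background subtraction, the step took the mean ratio of DTX2 at 24 h from 1.15 to 1.68, that of DTX3 from 1.10 to 1.57, that of LFNG from 1.06 to 1.52 and that of DTX4 from 1.11 to 1.53. NUMBL kept 1.01, since it lay within the limits for an unchanged gene. At 48 h DTX2 went from 1.24 to 2.31, DTX3 from 1.12 to 2.07, LFNG from 1.14 to 2.15, DTX4 from 1.20 to 2.42 and NUMBL from 1.20 to 2.26. A ratio of exactly 1 divided in the same way gives a mean of 1.42 with the efficiencies of 24 h, and of 1.85 with those of 48 h.

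The other Notch genes of the panel gave the surroundings of these 5. Of 31 receptors, ligands, proteases, nuclear factors and the target HES1, 30 were tested, and none passed an adjusted p of 0.05 in any comparison with miR-25. At an unadjusted p under 0.05 the ligand JAG2 (log2 fold change 0.54) and the gamma-secretase subunit PSENEN (0.16) were higher and RBPJ (-0.11) was lower at 48 h, and none passed at 24 h. Between controls at 48 h and 24 h, the receptor NOTCH3 rose by 1.44 on the log2 scale (adjusted p = 0.0157 from edgeR) and the protease FURIN, which matures Notch receptors, rose by 1.11 (adjusted p = 0.00277 from edgeR). RBPJ, the DNA-binding partner of Notch, fell by 0.48 (adjusted p = 0.0170 from edgeR). The calls of NOTCH3 and RBPJ were lost without any 1 of the 24 h controls (adjusted p from edgeR of 0.0820 to 0.0934 and 0.0900 to 0.120) and without the 48 h control of replicate 2 (0.0820 and 0.0886). That of FURIN held without each control in turn (0.000161 to 0.0437). With a replicate block all 3 were lost, at 0.0614 for NOTCH3 and RBPJ and 0.0514 for FURIN. The 3 tested relatives DTX3L, NUMB and RFNG had folds for miR-25 of 1.01, 1.03 and 1.08 at 24 h, and at 48 h of 0.944, 0.995 and 0.995.

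Over the 12 samples, the genes whose log2 profile lay nearest to that of each gene were found by the root mean square of the differences, each gene centred on its own mean. NUMBL lay nearest to PRKCD, a protein kinase C, at 0.08, and then to the cyclin gene CCND3 at 0.12. DTX3 also lay nearest to PRKCD, at 0.10, and then to WNT3 at 0.14. DVL2 lay at 0.18 from DTX2. LFNG lay nearest to FGFR1 (0.18) and LOC652788 (0.19), and DTX4 to PRKCI (0.25) and PSEN2 (0.28). The median distance to all tested genes was 0.33 to 0.49. These distances are a description over 12 libraries in which time point and depth move together.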

How the data were processed

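RNA of 12 LX-2 samples (50 ng each) was hybridised to the panel and counted. The authors deposited raw counts per probe, collected with nSolver 3.0, without background correction or scaling; genome build and aligner do not apply. Gene names came from the panel sheet for 193 identifiers and from the RefSeq table (GRCh38.p14) for 6. The members and lists were chosen with earlier results of these data known. Named genes were the 5 members, their relatives, 2 nearest genes per member, and Notch genes passing a test. For DTX2, 1 of the 2 nearest genes is not reported here.

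Counts of the 136 genes with a mean of at least 20 were tested with edgeR 4.0.16 (R 4.3.3, quasi-likelihood, total over the genes as library size, transfection pair as block, 12 samples in 1 fit; controls only between time points). p-values were adjusted by Benjamini-Hochberg over all genes tested. Samples of a pair deviated together (correlations 0.283 to 0.883), and they share a replicate label and a recorded efficiency. Exact tests used scipy 1.17.1. Alternatives were DESeq2 1.42.0, limma 3.58.1 (pseudocount 1), TMM, reference genes, other filters and left-out replicates. The code was tested on simulated data. Intervals of counts cover counting error only, and p-values measure the spread between these transfections.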

Additional observations from a re-analysis of the deposited data

How the results depend on the processing

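Of 364 values of the 5 genes' log2 fold changes under alternatives, 346 kept their direction and side of the threshold, 2 passed it newly and 16 changed sign. In the comparisons with miR-25, 0 of the 5 genes were called under every alternative, including no replicate block. For 48 h against 24 h in controls 0 were called, against 1 without the 48 h control of replicate 1 (DTX3) and 1 between the miR-25 samples (NUMBL), and left-out controls gave 0 to 1. Over all genes this comparison called 7, against 54 without that control, 2, 2 and 1 without the 24 h control of replicate 1, 2 or 3, 1 without the 48 h control of replicate 2, 22 with DESeq2 and 0 with a replicate block, whose numbers are shared only in name between time points. NUMBL at 24 h changed sign with DESeq2 (-0.027) and TMM (-0.021), and the difference of the effect for DTX4 with limma (-0.046). The other sign changes came from leaving out a replicate. At 24 h the log2 fold change then ran from -0.033 to 0.27 for DTX4 (below 0 without replicate 2, -0.0063, or 3), from -0.082 to 0.088 for NUMBL and from -0.0065 to 0.12 for LFNG (below 0 without replicate 1). At 48 h that of DTX4 ran from -0.33 to 0.42, and in the effect common to the time points from -0.011 to 0.20, below 0 without 48 h replicate 1. The difference of the effect ran from -0.080 to 0.23 for DTX2 (below 0 without 24 h replicate 3), from -0.080 to 0.11 for DTX3 (without 48 h replicate 2, or 24 h replicate 3, -0.035) and from -0.41 to 0.34 for DTX4 (without 48 h replicate 1, or 24 h replicate 1, -0.16). Between the time points, DTX2 ran from -0.14 to 0.29 (below 0 without the 24 h control of replicate 1) and DTX4 from -0.027 to 0.26 (without the 48 h control of replicate 1). The cause was not tested. DTX4 had the lowest counts of the 5 genes, with 10 to 36 a sample.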
